A study of Mus musculus with 6 samples.

Results

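The genes described here encode the nuclear subunits of the mitochondrial respiratory chain and of ATP synthase, together with the complex I assembly factors that share their Nduf name. They were taken by symbol: a probe set counted if the platform annotation gave it exactly 1 symbol and that symbol began with Nduf, Uqcr or Atp5, was Sdha, Sdhb, Sdhc, Sdhd, Cyc1 or Cycs, or was Cox followed by a digit 4 to 8 and a letter. This gave 92 of 18193 genes, on 184 of 45037 probe sets. Probe sets with several symbols were not used, so some subunits are not analysed here. Livers came from male C57BL/6 mice, an inbred laboratory strain. The high-fat group ate a diet with 60% of its calories from fat for 12 weeks and the normal diet group ate a normal diet for the same time, both from the age of 8 weeks. Each diet had 6 mice. Their RNA was combined 2 by 2, which is taken to mean 3 pools for a diet, each on 1 Affymetrix Mouse Genome 430 2.0 array. The replicate is therefore the pool (n = 3 per diet), and a p-value weighs a difference against the spread between pools, not between single mice.

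The respiratory chain passes electrons from NADH and succinate to oxygen and pumps protons out of the mitochondrial matrix, and ATP synthase uses the returning protons to make ATP. Complex I takes electrons from NADH, complex II from succinate, complex III hands them to cytochrome c and complex IV, cytochrome c oxidase, gives them to oxygen. In the liver these complexes serve the oxidation of fatty acids and the ATP demand of gluconeogenesis and urea synthesis. Most subunits have 1 gene, while some complex IV subunits have a common form and a second form used in muscle, lung or testis.

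Values are log2 expression levels made by the authors, and a difference is high-fat minus normal diet. It is given ± its standard error (SE), from the limma fit to all genes. Where a gene had several probe sets, the one with the highest mean stood for it. A gene was tested if it lay above the 40th percentile of the probe sets of an array, a level between 3.48 and 3.59, in at least 3 of the 6 arrays. Of the 92 genes 89 were tested. The others, Cox7b2, Cox7c and Ndufb4, lay below that level on at least 5 of the 6 arrays with their best probe set, and nothing is said of their change. The high-fat arrays were closer to each other than the normal diet arrays: the median SD of the 89 genes was 0.0637 over high-fat pools and 0.0929 over normal diet pools, and 66 of the 89 varied more over the normal diet pools. Over all tested genes the median SD was 0.117 for high-fat and 0.166 for normal diet pools. Precision is limited by having 3 arrays for each diet.

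Differences between the diets were small in the subunit genes. Of the 89 tested genes 1 rose under the high-fat diet, 0 fell and 88 were not called at an adjusted p below 0.05, while 7.60% of all 14071 tested genes were called (5.87% higher and 1.73% lower, or 826 and 244 genes, against 597 higher and 299 lower after quantile normalization). The gene that rose was Cox7a1, the muscle form of a complex IV subunit (log2 0.87 ± 0.13). At an unadjusted p below 0.05, 17 members were higher and 1 lower, 18 of 89, against 27.6% of all tested genes. The other 88 genes differed by -0.29 to 0.40, less than 1.5-fold (0.585 on the log2 scale), and their smallest adjusted p was 0.0701. For 78 of the 89 genes the whole 95% interval of the difference, not adjusted for the number of genes, lay inside 1.5-fold in either direction.

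Within this narrow range most differences were above 0 in the deposited values. The median member differed by 0.13 against 0.0033 for all tested genes, and 73 of 89 members lay above 0 (82.0%, against 50.5% of all tested genes), but after cyclic loess, which removes trends with level between arrays, the median was -0.0033 and 44 of 89 lay above 0. The 3 high-fat arrays did not overlap the 3 normal diet arrays in 45 members, 40 of them higher and 5 lower. Over all tested genes this held for 35.8%, with 21.1% higher and 14.7% lower. Values of 0.07 after quantile normalization and 0.17 after median centring also show how far the median depended on scaling.

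**Figure D1:**
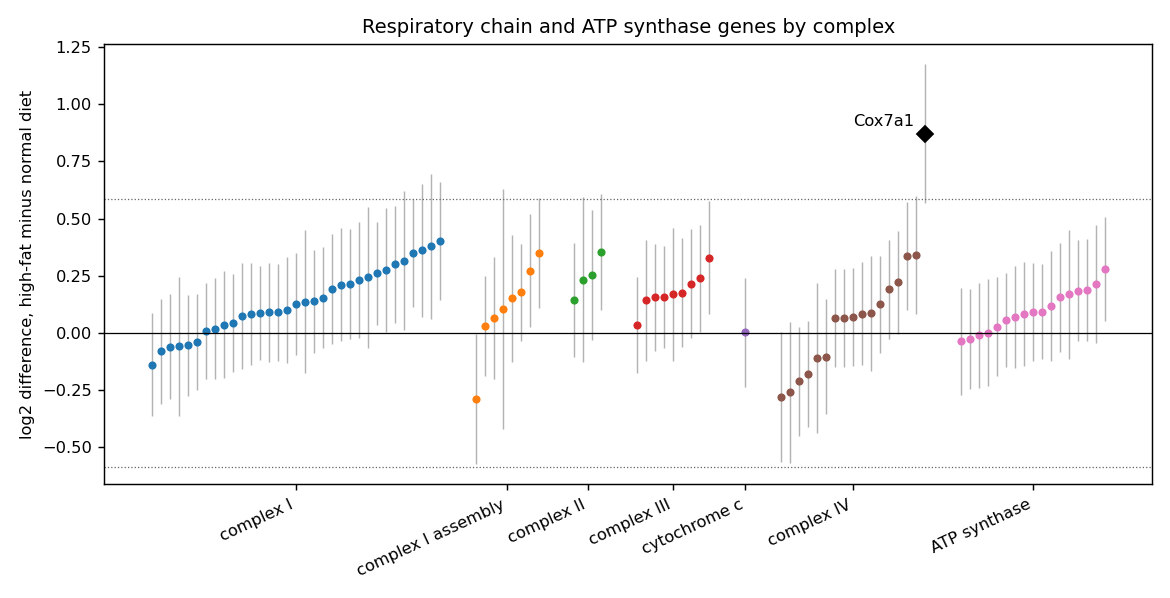
Log2 difference (high-fat minus normal diet, vertical axis) of the 89 tested genes, sorted within each complex along the horizontal axis; points are genes, grey bars are 95% intervals from limma and dotted lines mark 1.5-fold. Cox7a1, the black diamond at 0.87, is the one gene called, and the others lie between -0.29 and 0.40 in the deposited values, with a median of 0.13 over all 89 that became -0.0033 after cyclic loess.

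Complex I, the entry point for electrons from NADH, had 33 tested subunit genes. None was called in either direction, 27 lay above 0 and 6 below, and the median difference was 0.13. After cyclic loess 16 of the 33 lay above 0, with a median of -0.0033. The high-fat arrays all stood above the normal diet arrays in 16 genes and all below them in 1. Over all tested genes this held for 21.1% and 14.7%.

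Ndufs5, an accessory subunit gene, had the largest difference of the complex. It read 10.14, 10.16 and 10.33 in high-fat livers, against 9.84, 9.90 and 9.67 in normal diet livers (0.40 ± 0.11, adjusted p = 0.0701). The groups did not overlap, and the gene did not pass. Ndufa8, another accessory subunit gene, read 10.29, 10.23 and 10.41 in high-fat livers, against 9.91, 10.05 and 9.93 in normal diet livers (0.35 ± 0.10, adjusted p = 0.0800). Ndufb7, also accessory, read 10.37, 10.28 and 10.46 in high-fat livers, against 10.18, 10.04 and 9.81 in normal diet livers (0.36 ± 0.12, adjusted p = 0.116). All 3 high-fat arrays stood above all 3 normal diet arrays in both genes, by less than 1.5-fold.

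Among the core subunits are those that carry the flavin and the iron-sulphur clusters that conduct the electrons, and 6 of their genes were tested. Ndufs1, which encodes the largest iron-sulphur subunit, read 9.22, 9.32 and 9.45 in high-fat livers, against 8.91, 9.19 and 8.76 in normal diet livers (0.38 ± 0.14, adjusted p = 0.127). Ndufv1, whose product binds NADH and flavin, differed by 0.19 ± 0.10 (adjusted p = 0.267). Its partner gene Ndufv2 differed by 0.090 ± 0.09, and Ndufs3, of the same arm, by 0.037 ± 0.10. Ndufs7 and Ndufs8, whose products hold the last clusters before ubiquinone, differed by -0.080 ± 0.10 and -0.040 ± 0.09. The core genes thus had a median difference of 0.06, and the 27 tested accessory genes one of 0.14. This comparison of medians was not tested. The sign of Ndufs3 turned with array weights, with both other normalizations (quantile and cyclic loess) and without normal diet 3, that of Ndufv2 after cyclic loess, that of Ndufs7 with probe sets without a suffix and that of Ndufs8 after median centring and with other choices of probe set.

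The 8 complex I assembly factors build the complex and are not part of it. None was called, and 7 lay above 0 (4 after cyclic loess and 4 after quantile normalization). Ndufaf3 read 7.56, 7.37 and 7.59 in high-fat livers, against 7.13, 7.22 and 7.13 in normal diet livers (0.35 ± 0.10, adjusted p = 0.0823). Ndufaf5 differed by 0.27 ± 0.11 (adjusted p = 0.151). Ndufaf4 was the one factor below 0: it read 7.80, 7.89 and 7.61 in high-fat livers, against 8.06, 8.19 and 7.91 in normal diet livers (-0.29 ± 0.12, adjusted p = 0.176). Ndufaf3 and Ndufaf4 are thought to act as a pair early in assembly, and their arrays did not overlap in opposite directions, with neither gene called. A further probe set of Ndufaf4 differed by 0.04.

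Complex II is succinate dehydrogenase, which is also an enzyme of the citric acid cycle, and all of its subunits are nuclear. Its 4 genes had the highest median of the complexes, 0.24 in the deposited values and 0.11 after cyclic loess, with 4 of 4 above 0 under both, and none was called. Complex III had the higher median with the mean of the probe sets (0.144 in complex II and 0.158 in complex III) and without normal diet 3 (0.145 and 0.154). The mean of the probe sets takes in those below the filter, and for Sdha 2 of 4 probe sets passed it. Sdhd, a membrane anchor gene, read 11.08, 11.00 and 10.92 in high-fat livers, against 10.50, 10.76 and 10.67 in normal diet livers (0.35 ± 0.11, adjusted p = 0.0915). Sdhc, the other anchor gene, read 9.63, 9.76 and 9.75 in high-fat livers, against 9.46, 9.64 and 9.28 in normal diet livers (0.25 ± 0.12, adjusted p = 0.219). The groups were apart for Sdhd and overlapped for Sdhc. Sdha, which encodes the flavoprotein that oxidises succinate, read 10.81, 11.11 and 10.96 in high-fat livers, against 10.64, 11.02 and 10.51 in normal diet livers (0.23 ± 0.15, adjusted p = 0.359). Sdhb, the iron-sulphur subunit gene, differed by 0.14 ± 0.11 (adjusted p = 0.408), and normal diet 2 reached the high-fat values for both genes. Leaving out normal diet 2 put the median of the 4 genes at 0.36, and leaving out normal diet 3 put it at 0.14.

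Complex III passes electrons from ubiquinol to cytochrome c. All 9 of its tested genes lay above 0 in the deposited values, with a median of 0.17, and 8 of 9 did after cyclic loess, with a median of 0.04. None was called, and the groups were apart in 6, all higher in high-fat livers, beside 21.1% of all tested genes apart in that direction. Uqcrfs1, which encodes the Rieske iron-sulphur protein, read 11.51, 11.57 and 11.63 in high-fat livers, against 11.19, 11.39 and 11.15 in normal diet livers (0.33 ± 0.11, adjusted p = 0.0984). Cyc1, the cytochrome c1 gene, read 11.56, 11.43 and 11.40 in high-fat livers, against 11.27, 11.35 and 11.30 in normal diet livers (0.16 ± 0.10, adjusted p = 0.320). The high-fat arrays were above the normal diet arrays in both genes, for Cyc1 by a small margin. Uqcr10 and Uqcr11, which encode small accessory subunits, differed by 0.22 ± 0.10 and 0.24 ± 0.10 (adjusted p = 0.215 and 0.175). Uqcrc1 and Uqcrc2, the genes of the large matrix-facing core proteins, differed by 0.16 ± 0.10 and 0.17 ± 0.12. Cycs, the gene of cytochrome c itself, read 11.82, 11.84 and 11.62 in high-fat livers, against 11.78, 11.76 and 11.74 in normal diet livers (0.0033 ± 0.10, adjusted p = 0.986). High-fat 3 was the lowest of the 6 arrays for Cycs, and the difference was -0.13 after cyclic loess. Its sign also turned without high-fat 1, high-fat 2 or normal diet 3.

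In complex IV, which gives the electrons to oxygen, most genes of the common and of the tissue forms lay on different sides of 0 in the deposited values. Of 17 tested genes 1 rose, 0 fell and 16 were not called. Over all tested genes 5.87% were called higher and 1.73% lower, so this count is near the share of the whole array. The 9 common forms all lay above 0 in the deposited values (median 0.09, and 4 of 9 above 0 with a median of -0.04 after cyclic loess), whereas 6 of the 7 tested tissue forms lay below 0 (median -0.18, and 6 of 7 with a median of -0.14 after cyclic loess). The 2 kinds also differed in level. All 9 common forms had a mean level of 10 or more, where other tested genes had a median of 0.10. Cox4i2, Cox6b2, Cox7a1, Cox8b and Ndufa4l2 lay below 6, where that median was -0.06. Cox6a2 and Cox8c lay between 6 and 8, where it was 0.09. The part of level in this split was not tested.

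Among the common forms, Cox8a, a small membrane subunit gene, read 11.22, 11.06 and 11.23 in high-fat livers, against 10.68, 10.93 and 10.87 in normal diet livers (0.34 ± 0.11, adjusted p = 0.101). Cox4i1, which encodes the subunit where ATP slows the enzyme, read 12.11, 11.98 and 12.02 in high-fat livers, against 11.88, 11.86 and 11.80 in normal diet livers (0.19 ± 0.09, adjusted p = 0.224). Ndufa4, first assigned to complex I and now to complex IV, read 12.28, 12.26 and 12.24 in high-fat livers, against 11.92, 12.09 and 12.10 in normal diet livers (0.22 ± 0.10, adjusted p = 0.187). The groups were apart in these 3 genes and none passed. Cox6a1, Cox6b1 and Cox7a2, the common partners of tissue forms, differed by 0.13 ± 0.09, 0.085 ± 0.10 and 0.072 ± 0.09, and the signs of Cox6b1 and Cox7a2 turned after cyclic loess. Cox7a2l, named as a factor for supercomplexes of complexes III and IV, was counted with neither the common nor the tissue forms. Whether its product acts so in these livers was not tested. It read 9.83, 9.71 and 9.72 in high-fat livers, against 9.47, 9.48 and 9.30 in normal diet livers (0.34 ± 0.10, adjusted p = 0.0879). Its 3 probe sets differed by 0.24 to 0.34.

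Cox7a1, the form of subunit VIIa found in heart, skeletal muscle and brown fat, was the member that rose. It read 4.73, 4.46 and 4.46 in high-fat livers, against 3.87, 3.64 and 3.53 in normal diet livers. The groups stood apart, and the difference of 0.87 ± 0.13 was 1.83-fold (limma adjusted p = 0.0119, 95% interval 0.57 to 1.18). The level was low: normal diet 3, at 3.53, lay under the level filter of its array (3.59), and differences near background are compressed by RMA. Cox7a1 has 1 probe set on the array, so no second probe set bears on it. With only 2 high-fat arrays the call ended, whichever of them was dropped (0.78 to 0.92, with adjusted p between 0.0518 and 0.0570). With only 2 normal diet arrays it held (0.80 to 0.97, with adjusted p between 0.0120 and 0.0295).

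None of the other tested tissue forms was called, and all of them lay below 0. Cox6a2, another muscle form, read 6.10, 5.82 and 5.95 in high-fat livers, against 6.01, 6.05 and 6.12 in normal diet livers (-0.10 ± 0.11, adjusted p = 0.556). Cox8b, the muscle form of subunit VIII in rodents, read 4.02, 4.08 and 3.89 in high-fat livers, against 4.41, 4.02 and 4.34 in normal diet livers (-0.26 ± 0.13, adjusted p = 0.244). Both sets of arrays overlapped. Cox4i2, a lung form, differed by -0.18 ± 0.10, and Ndufa4l2, a paralog of Ndufa4 known as a hypoxia gene, by -0.11 ± 0.14 (0.024 without normal diet 3). The testis forms Cox6b2 and Cox8c differed by -0.28 ± 0.12 and -0.21 ± 0.10 (adjusted p = 0.189 and 0.225), and the third testis form, Cox7b2, at 2.50 to 2.82 on the 6 arrays, was below the filter on all of them. All high-fat arrays stood below all normal diet arrays in Cox4i2, Cox6b2 and Cox8c, while those of Ndufa4l2 overlapped. Over all tested genes 14.7% were apart in that direction.

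**Figure D2:**
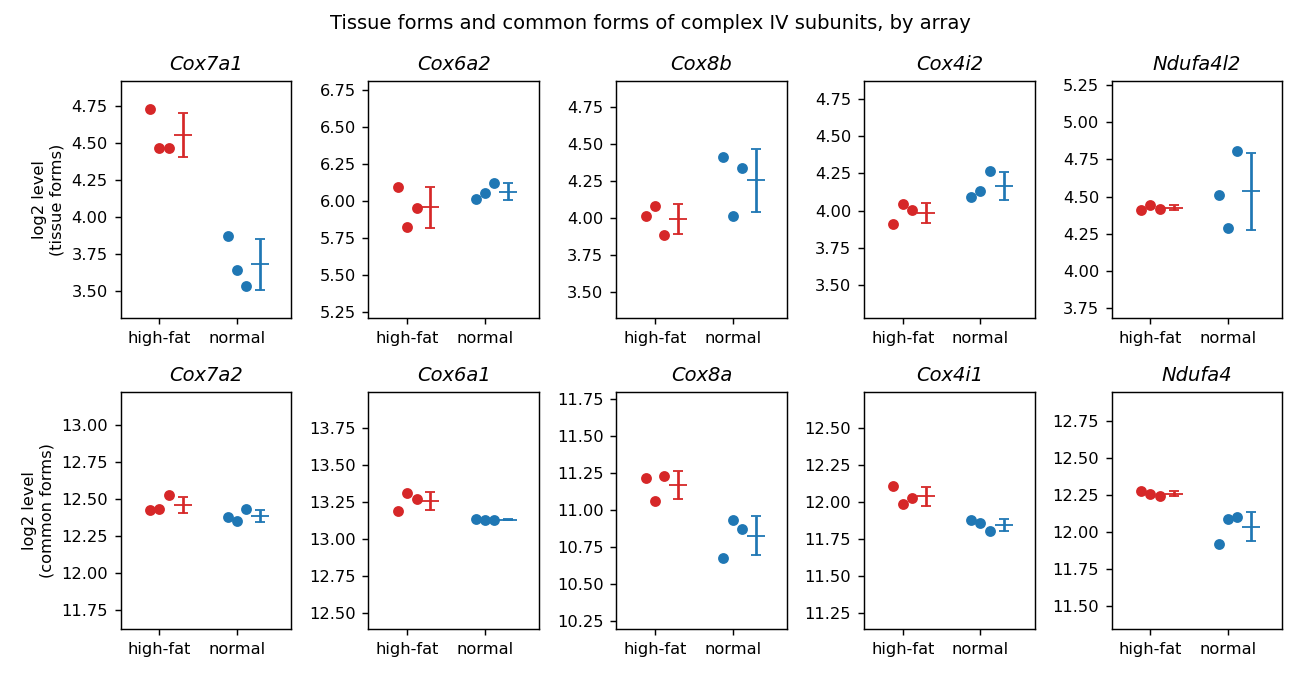
Log2 level (vertical axis, each panel 1.6 units high) of 5 tissue forms (upper row) and 5 common forms (lower row) of complex IV subunits in the high-fat arrays (red) and normal diet arrays (blue); points are arrays and bars are mean ± SD (n = 3). Cox7a1 is apart between the diets by 0.87, and the other 4 tissue forms shown differ by -0.26 to -0.10.

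Markers of other cells were read beside Cox7a1, since a bulk liver sample cannot tell more cells of a type from more RNA per cell. Of the 6 skeletal muscle markers 4 were tested and 0 called. The summed log2 level of all 6, those below the filter included, was 24.7 to 25.1 in the high-fat arrays. It was 25.4 to 26.1 in the normal diet arrays. This sum thus takes in levels at background, and the part of level in the gap was not tested. Ckm, the muscle creatine kinase gene, differed by -0.44 and Acta1, the skeletal actin gene, by 0.055. Of 4 adipocyte markers on the array the defining genes Adipoq and Lep lay below the filter on all arrays, and Ucp1, the brown fat uncoupling protein gene, lay between 3.31 and 3.83 and differed by -0.088. Fabp4, a fatty acid binding protein gene of adipocytes and macrophages, read 8.33, 8.60 and 8.50 in high-fat livers, against 6.17, 7.74 and 8.36 in normal diet livers (1.06 ± 0.49, adjusted p = 0.21), so it was higher on average, as Cox7a1 was, but the groups overlapped and it was not called. The summed level of these 4 was 17.2 to 17.7 in high-fat arrays and 15.2 to 17.8 in normal diet arrays. Of 6 macrophage markers 5 rose, with a summed level of 52.5 to 53.0 in the high-fat arrays and 47.8 to 49.2 in the normal diet arrays. Stellate markers rose in 2 of 5 and endothelial markers in 1 of 5. Over all tested genes 5.87% were called higher and 1.73% lower, and these short marker lists are read beside that share. The part of these cells in the Cox7a1 result was not tested. The hepatocyte markers were present: Alb, the albumin gene, averaged 14.5 in high-fat livers and 14.4 in normal diet livers. Of the 8 hepatocyte markers Hnf4a, a hepatocyte transcription factor gene, was the one that fell (-0.69), and their summed level was 103.2 to 103.7 in the high-fat arrays and 104.0 to 104.7 in the normal diet arrays.

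The upstream sequence of Cox7a1 is shown because it is the one member that passed, beside Sdhd and Atp5g2, which hold the consensus of NRF1, a factor known to act on many respiratory genes. Sequences are the 250 bases before the gene start, 5′ to 3′ on the strand of the gene, from RefSeq promoters of GRCm38.p6. Capitals mark the NRF1 consensus or CCGGAAG, the core of the motif of ETS factors such as GABPA, on either strand. Cox7a1 lies at chr7:30183921-30184170, plus strand, Sdhd at chr9:50603850-50604099, minus strand, and Atp5g2 at chr15:102671048-102671297, minus strand.
Cox7a1: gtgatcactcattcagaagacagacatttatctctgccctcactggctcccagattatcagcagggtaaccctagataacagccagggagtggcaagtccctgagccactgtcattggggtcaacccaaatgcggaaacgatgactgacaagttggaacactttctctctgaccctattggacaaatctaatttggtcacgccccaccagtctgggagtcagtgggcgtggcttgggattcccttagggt
Sdhd: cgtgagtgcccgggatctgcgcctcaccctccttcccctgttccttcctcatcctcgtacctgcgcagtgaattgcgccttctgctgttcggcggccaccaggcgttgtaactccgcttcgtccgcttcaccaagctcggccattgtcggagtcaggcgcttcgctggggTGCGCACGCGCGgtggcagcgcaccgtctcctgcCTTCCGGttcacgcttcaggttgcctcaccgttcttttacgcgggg
Atp5g2: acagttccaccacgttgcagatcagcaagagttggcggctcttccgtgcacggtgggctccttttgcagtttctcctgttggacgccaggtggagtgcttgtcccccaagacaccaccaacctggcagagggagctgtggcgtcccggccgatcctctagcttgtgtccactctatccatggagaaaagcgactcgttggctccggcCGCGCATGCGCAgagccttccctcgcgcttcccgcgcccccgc
The window of Cox7a1 holds neither motif. The NRF1 letters begin at position -80 in Sdhd and -43 in Atp5g2, counted from the gene start, and Sdhd also holds the ETS letters.

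Over windows of 250 bases before to 50 after the start, a promoter was at hand for 75 of the 92 genes. The NRF1 consensus, searched on both strands, was in 6 of them (8.0%), namely Atp5c1, Atp5g2, Ndufa6, Ndufb4, Sdhd and Uqcrc1. It was in 2.81% of 11252 tested genes with a promoter and in 1.41% of all 27025 genes with one. CCGGAAG, also on both strands, was in 19 (25.3%), against 17.3% of tested genes and 9.93% of all genes. In the deposited values the median difference of tested members was 0.18 with the NRF1 consensus and 0.12 without. The first of these rests on the few genes named above without Ndufb4, which was not tested. For the ETS letters the medians were 0.09 with and 0.14 without. These comparisons of medians were not tested. A match is a description of the letters in a window and not a binding site.

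ATP synthase had 17 tested genes, of which none was called, 14 lay above 0 and 3 below, with a median of 0.09 (6 above 0 and a median of -0.04 after cyclic loess). Atp5b, which encodes the catalytic beta subunit, read 12.65, 12.65 and 12.51 in high-fat livers, against 12.26, 12.54 and 12.38 in normal diet livers (0.21 ± 0.11, adjusted p = 0.253). Atp5a1, its alpha partner, read 12.00, 12.01 and 11.93 in high-fat livers, against 11.65, 12.02 and 11.75 in normal diet livers (0.17 ± 0.12, adjusted p = 0.388). The groups overlapped in both, with normal diet 2 at the high-fat level. Atp5mpl, a small membrane subunit gene, read 10.53, 10.50 and 10.58 in high-fat livers, against 10.15, 10.32 and 10.31 in normal diet livers (0.28 ± 0.10, adjusted p = 0.118). It had the largest difference of the complex, and its groups were apart. Atp5l, another membrane subunit gene, differed by 0.19 ± 0.10 (adjusted p = 0.244).

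Atp5g1, Atp5g2 and Atp5g3 encode the same mature c subunit of the proton-driven ring from different genes. Atp5g2 read 10.70, 10.70 and 10.80 in high-fat livers, against 10.52, 10.50 and 10.62 in normal diet livers (0.18 ± 0.09, adjusted p = 0.247). Atp5g1 and Atp5g3 differed by -0.010 ± 0.10 and 0.071 ± 0.10. None of the 3 passed, and the arrays were apart for Atp5g2 alone. The sign of Atp5g1 turned after median centring, on averaging its probe sets and without high-fat 2, normal diet 2 or normal diet 3, and that of Atp5g3 after cyclic loess. The second probe set in the Atp5g1 average had a mean of 2.43 and was above the filter on 0 arrays.

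The members were also read by probe set, since 48 genes had more than 1 that passed the filter. Of 166 passing probe sets 1 was called, the Cox7a1 one, against 6.03% of all 23408 probe sets tested on their own, and their median was 0.12. In 30 of the 48 genes all probe sets lay on the same side of 0, and in 18 they did not. The widest gap was in Cox8a, where the strong probe sets differed by 0.34 and 0.34 and a weak one, at a mean of 4.15, by -0.32. For Atp5j2, a membrane subunit gene of ATP synthase, the strong probe sets differed by 0.06 and 0.11 and a weaker one by -0.41. Ndufc2, of complex I, ranged from -0.06 to 0.42 over 4 probe sets, and Atp5d, a central stalk gene of ATP synthase, gave -0.03 and 0.38 with its 2. These gaps within a gene were wider than most differences between the diets. Atp5j2, Ndufc2 and Atp5d were picked for these gaps after their values were seen.

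The normal diet arrays differed more among themselves than the high-fat arrays. Taking each gene's deviation from the mean of its diet means, the median member lay at 0.06, 0.06 and 0.05 in high-fat 1, 2 and 3, against -0.06, -0.02 and -0.09 in normal diet 1, 2 and 3. Normal diet 3 was the lowest of its group in 46 of the 89 genes and normal diet 2 the highest in 43. For complex II the normal diet values were -0.16, 0.06 and -0.26, so that normal diet 2 lay at the high-fat level. Leaving out normal diet 2 put the median of the 89 differences at 0.15, and leaving out normal diet 3 put it at 0.0955. Normal diet 3 also had the lowest array weight, 0.35 against 0.76 to 1.82 for the other arrays. Control readings of 3′ minus 5′ ends, a check on RNA quality, were highest on normal diet 1. They were 0.36 for Gapdh (-0.19 to 0.0086 on the other arrays) and 1.59 for Actb (1.02 to 1.23). The part of array quality in the differences was not tested.

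**Figure D3:**
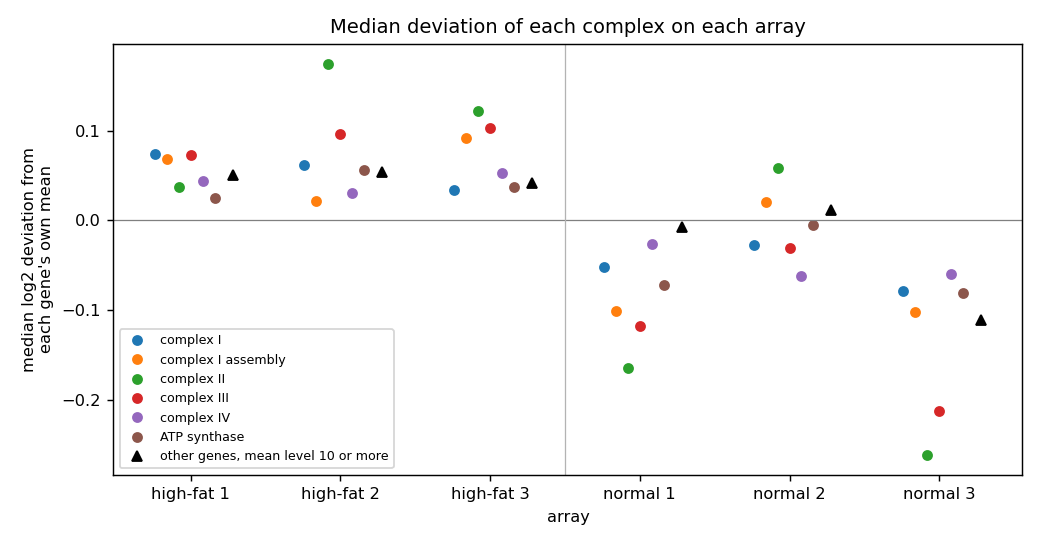
Median log2 deviation of each complex (coloured points) and of the other tested genes with a mean level of 10 or more (black triangles) on each array, high-fat arrays left and normal diet arrays right of the line; a deviation is from the mean of a gene's diet means. High-fat medians lie above 0 for every complex shown, and normal diet 3 is below 0 for each of them and for the other strongly read genes (-0.11). After cyclic loess the members' median difference between the diets was -0.0033.

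Other genes read at the same levels had medians of the same sign. Of the 89 members 66 had a mean level of 10 or more, with a median difference of 0.13. The 664 other tested genes in that range had a median of 0.10, and 61.6% of them lay above 0, against 59 of the 66 members. Between 8 and 10 the median was 0.14 for 9 members and 0.16 for 1790 other genes. Below 6 it was -0.11 for 7 members, 5 of them tissue forms of complex IV, and -0.06 for 7317 other genes. The sign of the median thus followed the level for members and other genes alike in the deposited values, and after cyclic loess the members' median lay at -0.0033 and that of all tested genes at 0.0011. The part of scaling and of diet in this trend was not tested.

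**Figure D4:**
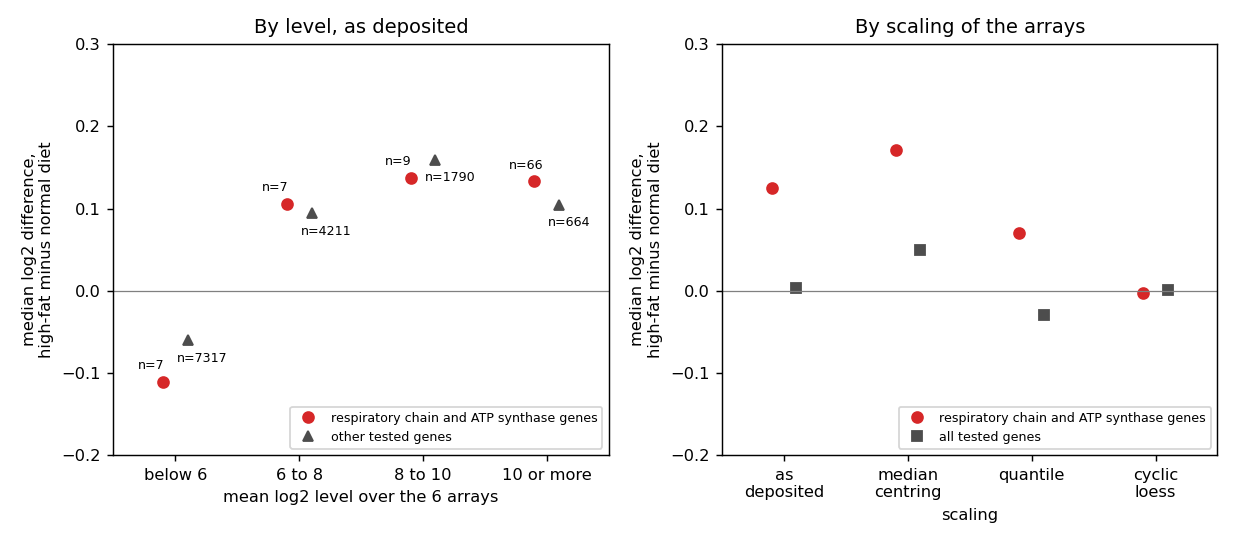
Left, median log2 difference (high-fat minus normal diet) of members (red circles) and other tested genes (grey triangles) by mean level, with the number of genes; right, the same median for members and for all tested genes (grey squares) as deposited and under 3 further scalings. Both kinds of gene are below 0 under level 6 and above 0 from level 6 upward, and the members' median runs from 0.17 after median centring to -0.0033 after cyclic loess.

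Genes that work beside the subunits were read from lists of 108 entries, of which 88 had a tested gene. The median difference of these 88 genes was 0.24 in the deposited values, against 0.0033 for all tested genes. Tested genes outside the 92 members had medians of 0.09 to 0.16 in the level bands from 6 upward. The part of level and scaling in the 0.24 was not tested. Of the 88 genes 5 rose and 2 fell. These 7 of 88 stand beside 7.60% of all tested genes called (5.87% higher and 1.73% lower), so the share is near that of the whole array and is no result about the lists. Of 38 assembly factors for complexes I to V outside the Nduf names Acad9 rose (0.79 ± 0.18, limma adjusted p = 0.0398). Of 11 coenzyme Q genes Coq9, which encodes a lipid-binding protein of the pathway, rose (0.66 ± 0.15, adjusted p = 0.0383). Of 12 citric acid cycle genes Suclg1, a succinyl-CoA ligase subunit gene, rose (0.47 ± 0.11, adjusted p = 0.0398), and Fh1, the fumarase gene, fell (-0.53 ± 0.11, adjusted p = 0.0325). Succinyl-CoA ligase and fumarase stand on either side of succinate dehydrogenase in the cycle.

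Among 11 genes of electron entry and carriers 2 rose, beside 5.87% of all tested genes called higher. Slc25a4, which encodes the ADP/ATP carrier of heart and skeletal muscle, read 6.50, 6.54 and 6.24 in high-fat livers, against 4.94, 5.08 and 4.53 in normal diet livers (1.58 ± 0.16, 2.98-fold, adjusted p = 0.00427). Gpd2, the mitochondrial glycerol phosphate dehydrogenase gene, rose by 0.72 ± 0.17 (adjusted p = 0.0440). The groups were apart in both. The one mitochondrially encoded gene with a probe set of its own symbol, ND5, read 12.85, 12.86 and 12.73 in high-fat livers, against 12.85, 12.87 and 13.00 in normal diet livers (-0.092 ± 0.10, adjusted p = 0.569). The other mitochondrially encoded subunits are not analysed here.

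Of 10 regulators of mitochondrial gene expression 1 fell and 0 rose, beside 1.73% of all tested genes called lower and 5.87% called higher. Pprc1, a relative of PGC-1alpha, read 5.50, 5.59 and 5.54 in high-fat livers, against 6.11, 6.33 and 6.97 in normal diet livers (-0.93 ± 0.21, adjusted p = 0.0404). Ppargc1b, the gene of the coactivator PGC-1beta, read 6.99, 6.93 and 7.03 in high-fat livers, against 6.50, 6.10 and 5.42 in normal diet livers (0.98 ± 0.25, adjusted p = 0.0566), and Tfam, the mitochondrial transcription factor gene, differed by 0.49 ± 0.13 (adjusted p = 0.0591). Their arrays were apart and neither passed with all arrays, while both passed with array weights (adjusted p = 0.0212 for Ppargc1b and 0.0403 for Tfam). Ppargc1b also passed without normal diet 1 or without normal diet 3 (adjusted p = 0.0241 and 0.0232), and Tfam after median centring (adjusted p = 0.0498). Ppargc1a differed by 0.43 ± 0.29, Nrf1 by -0.24 ± 0.12, Gabpa by 0.12 ± 0.12 and Esrra by 0.27 ± 0.13, none of them called. The sign of Gabpa turned after quantile normalization and on averaging its probe sets. With the mean of the probe sets the difference of Slc25a4 was 0.97 (adjusted p = 0.00518), that of Acad9 0.50 (adjusted p = 0.0464) and that of Tfam 0.28 (adjusted p = 0.152), each smaller by over 1.5 times. Coq9 lost its call there (0.35, adjusted p = 0.0891), and Acad9 lost its call with array weights (0.64, adjusted p = 0.0507). The mean takes in any probe sets below the filter. Their part in the smaller values of Slc25a4, Acad9, Tfam and Coq9 was not tested. Slc25a4 passed with each array dropped in turn (adjusted p between 0.00143 and 0.0312). The calls of Acad9, Coq9, Suclg1, Fh1, Gpd2 and Pprc1 ended with only 2 high-fat arrays, whichever was dropped (adjusted p between 0.0596 and 0.158). Each of these 6 also lost its call without at least 1 normal diet array (adjusted p between 0.0511 and 0.0755). After quantile normalization or cyclic loess Acad9, Coq9, Suclg1 and Gpd2 were not called (adjusted p between 0.0542 and 0.0815).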

How the data were processed

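The authors deposited 1 log2 expression level for each probe set and array. Per the submitters' processing notes these were made by RMA (background correction, quantile normalization and probe summary) with version 1.0 of Affymetrix Expression Console. Of 45101 probe sets 64 controls were left out, no value was missing, and scanner files were not used here. The platform annotation gave 34945 probe sets 1 symbol, for 18193 genes. limma 3.58.1 in R 4.3.3 (lmFit, eBayes, two-sided, Benjamini-Hochberg over 14071 genes, calls at an adjusted p below 0.05) compared the diets, which were read from the titles. It was also run on simulated independent genes drawn from its own variance model. That run cannot show how it handles genes that vary together or arrays of unequal quality. Summaries used Python 3.11.15, pandas 2.3.3 and matplotlib 3.10.9.

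Members and lists were chosen with earlier results of these data known. Named genes were called members, the 3 members of each complex with the smallest p, tissue forms and their partners, the Sdh genes, Cyc1 and Cycs, called genes of related lists and chosen regulators; Ucp2 is not analysed here. Core and catalytic subunits were added after their values were seen. Alternatives changed the level filter, variance model, array weights, scaling, probe set choice and threshold, added a block, or dropped 1 array. The mean of the probe sets was taken over all probe sets of a gene, those below the level filter included. The NRF1 consensus was widened to its degenerate form after a first search.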

Additional observations from a re-analysis of the deposited data

How the results depend on the processing

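Cox7a1 was the one member called, with 0 lower, in every alternative except an adjusted p below 0.01 and the loss of any high-fat array, where 0 members were called (0 to 1 with 1 array left out). Over all genes an adjusted p below 0.01 gave 125 higher and 47 lower, array weights gave 373 lower, and leaving out 1 array gave 123 to 933 higher and 46 to 312 lower. The members' median of 0.13 was 0.0708 after quantile normalization, -0.0033 after cyclic loess, 0.172 after median centring, 0.0955 to 0.155 with 1 array left out and 0.138 over common-form subunits alone, an alternative chosen after seeing the data. Array numbers were not taken to pair the diets. Same-numbered deviations correlated at -0.012, 0.036 and 0.0999, the last being the highest over all pairs of arrays across diets. High-fat 2 correlated at 0.079 with normal diet 1. With 3 arrays for each diet these few values cannot decide whether arrays were paired. With the number as a replicate block 581 genes were higher and 187 lower, and 1 member was called, while the adjusted p of Acad9, Coq9, Suclg1, Fh1, Gpd2 and Pprc1 was 0.0504 to 0.0869.

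Of the 89 members 50 kept 1 sign under those of the 16 alternatives in which they had a value (42 higher and 8 lower). Changing the level filter or the variance model, or adding the replicate block, leaves each difference as it is. A sign could not turn under these alternatives. With probe sets without a suffix only 69 members had a value. The sign turned in 29 members after cyclic loess, 8 after quantile normalization, 9 with the mean of the probe sets, 8 with probe sets without a suffix, 4 each with array weights and median centring, and 1 to 9 with 1 array left out. Among the genes named in the text the turned values were these. Cyclic loess gave -0.052 for Atp5g3, -0.074 for Atp5j2, -0.044 for Cox6b1, -0.054 for Cox7a2, -0.126 for Cycs, -0.0033 for Ndufc2, -0.094 for Ndufs3 and -0.041 for Ndufv2. Quantile normalization gave -0.040 for Ndufs3 and -0.0032 for Gabpa, and array weights -0.0043 for Ndufs3. Median centring gave 0.019 for Atp5d, 0.036 for Atp5g1 and 0.0063 for Ndufs8. The mean of the probe sets gave 0.175 for Atp5d, 0.0091 for Atp5g1, -0.081 for Atp5j2, -0.050 for Gabpa and 0.0073 for Ndufs8, and probe sets without a suffix 0.00093 for Ndufs7 and 0.141 for Ndufs8. With 1 array left out Atp5d ran from -0.055 to 0.0099, Atp5g1 from -0.064 to 0.020, Cycs from -0.036 to 0.075, Ndufa4l2 from -0.235 to 0.024 and Ndufs3 from -0.0086 to 0.103. Of the named genes' values under alternatives, 867 kept direction and side of the threshold, 46 lost a call, 5 gained one and 30 changed sign. The 867 include values from alternatives under which a sign could not turn. The cause of the changes was not tested. Having 3 pools for each diet limits the precision.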
